A study of Arabidopsis thaliana with 9 samples.

Results

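The region described here is the stretch of Arabidopsis thaliana chromosome 5 that surrounds DOG1 (DELAY OF GERMINATION 1, AT5G45830), taken as every probe set annotated to 1 locus from AT5G40000 to AT5G52000. It held 626 of the 22746 probe sets tested, for 618 loci, of which 8 had 2 probe sets each. RNA of freshly harvested dry seeds was measured on 9 Affymetrix arrays, with 3 biological replicates, each a bulk of 8 plants, for each of 3 genotypes. The dog1-1 mutant is labelled as lacking DOG1 expression. NILDOG1 is a near isogenic line with DOG1 from the Cvi accession and is labelled as strong in DOG1 expression. Ler (Landsberg erecta) is the wild type, labelled as low. The labels give Landsberg erecta as the genetic background of all 3 genotypes and name Cvi for NILDOG1 alone. In published accounts of the locus the dog1-1 allele was raised by mutagenesis of the line that carries the Cvi segment.

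DOG1 sets the depth of seed dormancy, the state in which a mature seed does not germinate under good conditions. The Cvi allele gives strong dormancy, and seeds without DOG1 germinate soon after harvest. A near isogenic line holds a donor segment around the selected gene in the chromosomes of the recurrent parent, so neighbouring donor alleles travel with that gene. An array signal depends both on the amount of a transcript and on how well its sequence matches the probes. A donor allele can therefore change the signal in either way, and these were not told apart here.

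Of the 13436 probe sets named for 1 locus 0 were named for DOG1, so the labelled DOG1 expression could not be checked here. Values are log2 signals, and an error after ± is the standard deviation (SD, n = 3 arrays), while SE marks the standard error of a difference. The tissue label was checked on 4 of 10 dry seed markers with a named probe set, whose means ran from 9.71 for OLEO3, an oil body protein gene, to 13.91 for AT3G15670, an LEA protein gene. Of 5 green tissue markers 3 were measured, among them RCA (AT2G39730) at 5.82 ± 0.14 in dog1-1, 4.34 ± 0.20 in NILDOG1 and 4.30 ± 0.17 in Ler, and AT5G01530 at 8.14 ± 0.11, 8.96 ± 0.17 and 8.75 ± 0.43 in that order of genotypes. The third, AT3G08940, had 6.56 ± 0.27 in dog1-1, 5.89 ± 0.17 in NILDOG1 and 6.06 ± 0.16 in Ler. The 2 measured seed coat markers averaged 2.57 to 2.84 and the 2 measured endosperm markers 2.21 to 4.03 over the genotypes. In whole seeds a smaller share of cells of a type and less RNA per cell cannot be told apart, and the part of these markers in the results was not tested. The hybridization controls, spiked into each sample, averaged 8.81 to 9.14 on dog1-1 arrays, 9.12 to 9.27 on NILDOG1 arrays and 9.19 to 9.57 on Ler arrays. Signal for the 25S ribosomal RNA control was lowest on dog1-1 replicate 3 (8.04) and Ler replicate 1 (7.33), with 9.86 to 11.88 on the other arrays. The TrpnX controls, for a bacterial transcript, gave 1.82 to 2.56, and a genotype mean of up to 2.56 was taken as background. In the region 439 probe sets were above background in all 3 genotypes and 117 were at background in all 3. All 626 were tested, with no filter on low values.

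Between NILDOG1 and Ler 33 probe sets of the region (32 loci, 5.27%) passed an adjusted p of 0.05 with limma, which is what "called" means from here on. Over all probe sets tested the share was 0.545%. The called probe sets were split evenly in direction, with 17 higher and 16 lower in NILDOG1 (0.321% and 0.224% over all probe sets), and 19 differed at least 2-fold (0.312% over all). For all 33 the 3 NILDOG1 arrays did not overlap the 3 Ler arrays. Across the region 130 probe sets did not overlap (20.8%, against 9.32% over all probe sets). The median change of the region was -0.00021, beside -0.0018 over all probe sets tested, and the median size of change was 0.10 beside 0.086. The direction of a call is relative to the median of all probe sets.

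Between dog1-1 and Ler 108 probe sets of the region were called (17.3%, against 13.6% over all probe sets), 52 higher and 56 lower in dog1-1 (8.31% and 8.95%, against 8.33% and 5.28% over all), and 28 differed at least 2-fold (4.47%, against 3.45% over all). Between dog1-1 and NILDOG1 63 were called (10.1%, against 12.5% over all), 26 higher and 37 lower in dog1-1 (against 7.52% and 4.94% over all), and 12 differed at least 2-fold (1.92%, against 3.43% over all). Without NILDOG1 replicate 1 the number called between dog1-1 and NILDOG1 was 41 in place of 63 (6.55%, against 9.45% over all probe sets in that fit). Without dog1-1 replicate 3 and Ler replicate 1, the arrays with a low 25S control, 25 probe sets were called in NILDOG1 against Ler (3.99%, against 0.308% over all), 75 in dog1-1 against Ler (12.0%, against 8.71% over all) and 49 in dog1-1 against NILDOG1 (7.83%, against 9.90% over all). When every array was centred on its hybridization controls, the median change of all probe sets between dog1-1 and Ler moved to 0.31 and that between NILDOG1 and Ler to 0.17. The region then had 120 higher and 20 lower in dog1-1 against Ler (22.4% called, against 22.7% over all), so that its share was no longer above that of all probe sets. In NILDOG1 against Ler 21 were then higher and 9 lower (4.79% called, against 0.668% over all), and in dog1-1 against NILDOG1 37 were higher and 16 lower (8.47%, against 11.0% over all).

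**Figure D1:**
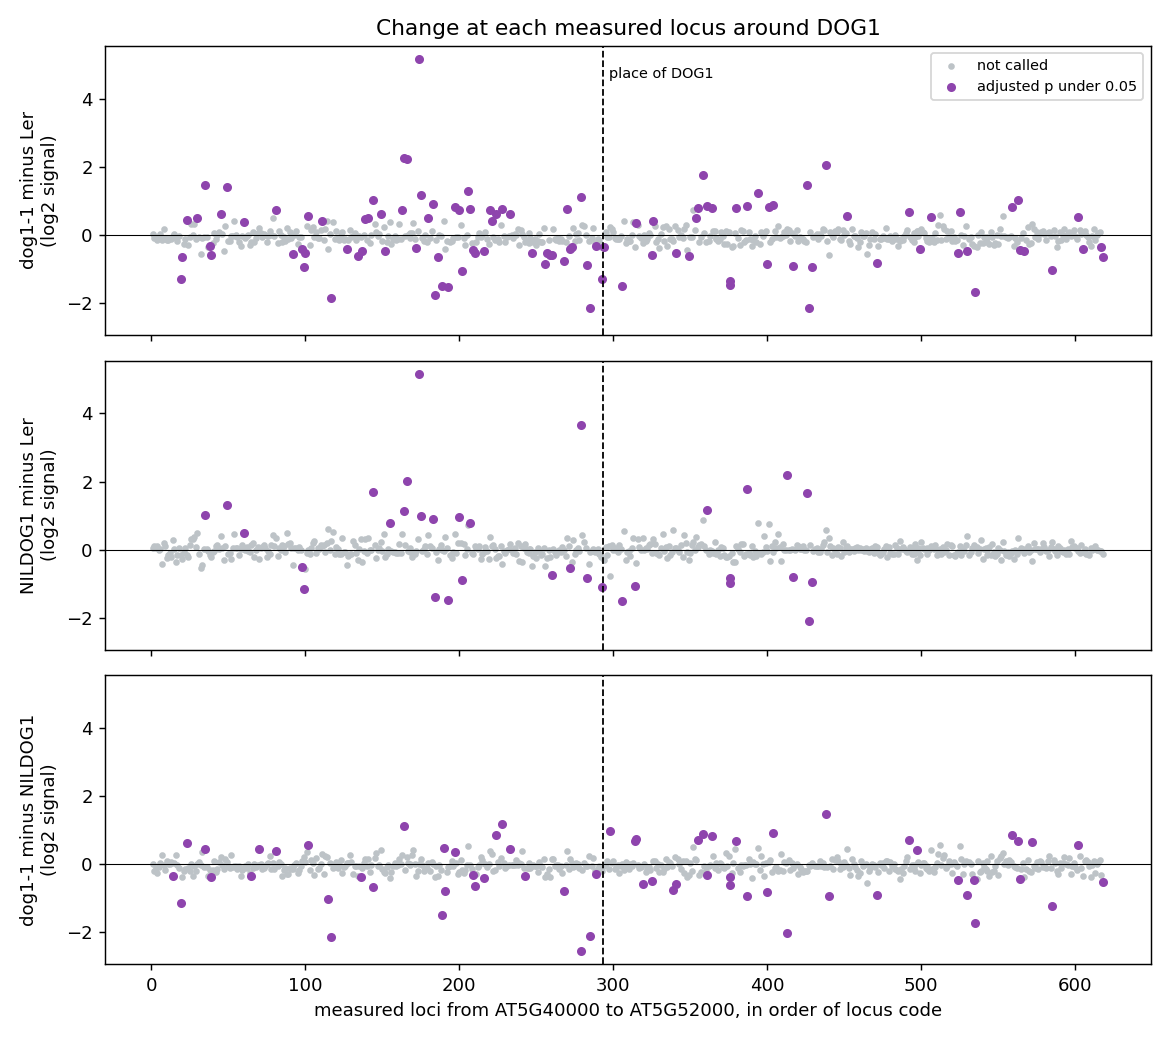
Log2 difference at each of the 626 probe sets, placed by the order of its locus among the 618 measured loci, for dog1-1 minus Ler (top), NILDOG1 minus Ler (middle) and dog1-1 minus NILDOG1 (bottom); purple points passed an adjusted p of 0.05 and the dashed line marks the place of DOG1. The 33 purple points of the middle panel lie on both sides of DOG1 and end before the right-hand part of the region, where the other panels still hold calls.

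To follow where dog1-1 went with either of the other genotypes, each locus was classed by group means alone, with no test. The dog1-1 mean counted as like that of a genotype when it lay within 0.5 of it. No distance was required between the means of NILDOG1 and Ler. A locus classed as like NILDOG1 can therefore have NILDOG1 close to Ler as well. By this rule dog1-1 was like NILDOG1 and not Ler at 50 of 618 loci (8.09%), against 1.87% of the 12599 named nuclear loci outside the region. It was like Ler and not NILDOG1 at 11 loci (1.78%, against 1.71% outside) and like neither at 35 (5.66%, against 7.05% outside). At the remaining 522 loci it was like both (84.5%, against 89.4% outside). The 50 loci were divided evenly, with 25 higher and 25 lower in dog1-1 than in Ler. Of these 47 were called in dog1-1 against Ler (94%, against 13.6% over all probe sets). In NILDOG1 against Ler 21 were called (42%, against 0.545% over all). The class requires a dog1-1 mean more than 0.5 from that of Ler. These calls therefore follow in part from how the loci were picked and are no separate evidence for the class. Although the class holds dog1-1 within 0.5 of NILDOG1, 8 of the 50 loci were called between these genotypes (16%, against 12.5% over all probe sets). With arrays centred on the hybridization controls the class like NILDOG1 held 89 loci (14.4%, against 8.96% outside). A difference from dog1-1 lay within 0.05 of the margin at 35 loci, the nearest inside for NILDOG1 being AT5G47020 (0.50) and the nearest outside AT5G51980 (-0.53).

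The group means of NILDOG1 and Ler were more than 0.5 apart at 43 loci of the region (6.96%, against 0.818% outside). At 35 of these 43 (81.4%) dog1-1 lay nearer to NILDOG1 than to Ler, while outside the region this was so at 55 of 103 (53.4%). With a separation of more than 1 it was 15 of 19 loci in the region and 14 of 24 outside. Both counts share their Ler and NILDOG1 arrays with the separation that selects the loci, so they are given as a description. The loci outside include the adjoining stretch from AT5G36000 to AT5G39999. There dog1-1 lay nearer to NILDOG1 than to Ler at each of the 7 probe sets called in NILDOG1 against Ler. At AT5G38780 and AT5G39730 dog1-1 was also called apart from NILDOG1 (-1.07 and -0.74, adjusted p = 1.49e-04 and 0.00922 with limma). At AT5G28110, further from the region, dog1-1 lay nearer to Ler (-2.98) than to NILDOG1 (-5.36), and NILDOG1 was above Ler by 2.38.

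The loci called in NILDOG1 against Ler ran from AT5G40640 to AT5G48370. Within that stretch 33 of 399 probe sets were called (8.27%), and 44 of its 395 loci were of the class like NILDOG1 (11.1%). Beyond AT5G48370 the region held 193 more probe sets, of which 0 were called in NILDOG1 against Ler with limma and 7 had an unadjusted p under 0.05 (3.63%). There 4 of 189 loci were like NILDOG1 (2.12%), close to the 1.87% found outside the region. The largest difference between NILDOG1 and Ler beyond AT5G48370 was 0.58, at AT5G48540. In the same 193 probe sets 19 were called in dog1-1 against Ler (9.84%) and 16 in dog1-1 against NILDOG1 (8.29%), both below the shares over all probe sets (13.6% and 12.5%). These ends were read from the calls themselves, and the call at AT5G48370 was lost in 6 of 9 fits that left out 1 array, while that at AT5G48350 was kept in all 9.

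On the other side the calls did not stop at the edge of the region. From AT5G36000 to AT5G39999 7 of 178 probe sets were called in NILDOG1 against Ler (3.93%), the nearest being AT5G39940, which rose by 0.87 in NILDOG1 (adjusted p = 0.0202). Over the longer stretch from AT5G28000 to AT5G39999 it was 8 of 344 (2.33%). From AT5G52001 to AT5G67999 0 of 780 were called with limma, and 26 had an unadjusted p under 0.05.

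In steps of 1000 in locus code, the class like NILDOG1 had its highest shares from AT5G43000 to AT5G43999, with 10 of 45 loci (22.2%), and from AT5G45000 to AT5G45999, the step that holds DOG1, with 7 of 48 (14.6%). The same steps held the highest shares of calls in NILDOG1 against Ler, 8 of 46 probe sets (17.4%) and 5 of 48 (10.4%). Each of the steps from AT5G40000 to AT5G48999 held at least 2 such calls. Between AT5G49000 and AT5G51999 each of the 3 steps held 0, and 1, 2 and 0 loci were like NILDOG1. A step held 44 to 60 measured loci, so single loci move these shares.

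**Figure D2:**
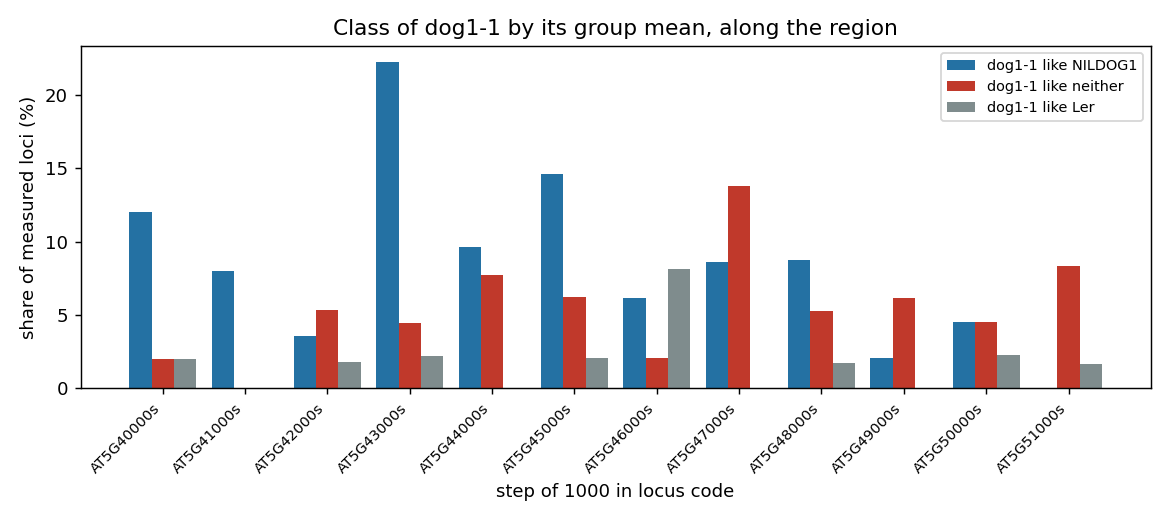
Share of measured loci (%) in each step of 1000 in locus code at which the dog1-1 mean was like that of NILDOG1 (blue), like neither (red) or like Ler (grey), the loci like both making up the rest. The blue bar is highest in the AT5G43000s (22.2%) and AT5G45000s (14.6%), and is absent in the AT5G51000s.

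The called loci lay among loci that were not called. The median distance from one to the next was 9 measured loci and the widest 53, between AT5G44080 and AT5G45160. Of the 32 called loci 8 lay next to another called locus, in 4 adjacent pairs. In 2 of these pairs (AT5G43670 with AT5G43680, and AT5G48340 with AT5G48350) the neighbours moved in opposite directions. Whether this spacing differs from a random placement was not tested.

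Of the 33 probe sets 22 were of the class like NILDOG1, 5 like neither, 4 like both and 2 like Ler, and at 21 the dog1-1 mean was within 0.25 of the NILDOG1 mean. Both comparisons with Ler use the same Ler arrays, so the values of each locus are given side by side.

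The widest difference was at AT5G43450, a gene of the 2-oxoglutarate-dependent dioxygenase family. Its probe set gave 8.20, 8.09 and 8.05 on the dog1-1 arrays, 7.91, 8.20 and 8.20 on the NILDOG1 arrays and 3.11, 2.96 and 2.77 on the Ler arrays. The Ler arrays lay far below all others and close above the TrpnX controls (up to 2.56), while dog1-1 and NILDOG1 overlapped. The signal was 35.9-fold higher in dog1-1 and 35.5-fold higher in NILDOG1 than in Ler (log2 differences 5.16 and 5.15, SE 0.12, adjusted p = 4.39e-10 and 4.52e-10 with limma). With Ler so near background the size of these folds is uncertain. Between dog1-1 and NILDOG1 the difference was 0.013 (adjusted p = 0.969). Its measured neighbour AT5G43460 had 9.15 ± 0.14 in dog1-1, 8.98 ± 0.030 in NILDOG1 and 7.98 ± 0.17 in Ler, a smaller step in the same direction.

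AT5G43190, an F-box gene, gave 7.84, 7.28 and 7.07 in dog1-1, 7.33, 7.15 and 7.05 in NILDOG1 and 4.72, 5.38 and 5.41 in Ler. It was 4.68-fold higher in dog1-1 and 4.02-fold higher in NILDOG1 than in Ler (adjusted p = 2.02e-05 and 4.86e-04). Near the upper end of the stretch AT5G48340 gave 7.50, 7.55 and 7.44 in dog1-1, 7.63, 7.68 and 7.78 in NILDOG1 and 6.03, 6.21 and 5.90 in Ler. All arrays of both lines were above all Ler arrays at these loci. Near the lower end AT5G40960 had 5.10 ± 0.26 in dog1-1, 5.02 ± 0.19 in NILDOG1 and 3.70 ± 0.19 in Ler, and AT5G40640 had 5.34 ± 0.10, 4.90 ± 0.11 and 3.88 ± 0.11 in that order of genotypes. AT5G40640 was above Ler in both lines but also higher in dog1-1 than in NILDOG1 (0.44, SE 0.10, adjusted p = 0.0128). That call was lost without NILDOG1 replicate 1 (0.38) and without dog1-1 replicate 2 (0.38).

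Further genes of the class like NILDOG1 rose by 0.78 to 1.15 in NILDOG1 against Ler. AT5G47160, which encodes an SRA-domain protein, had 4.72 ± 0.10 in dog1-1, 5.03 ± 0.055 in NILDOG1 and 3.88 ± 0.078 in Ler, with a difference between dog1-1 and NILDOG1 at the threshold (-0.31, adjusted p = 0.0499) that was lost in 12 of 16 alternatives. AT5G43670, of the Sec23/Sec24 family of vesicle coat proteins, had 5.37 ± 0.16, 5.36 ± 0.15 and 4.46 ± 0.18 in dog1-1, NILDOG1 and Ler. AT5G43930 averaged 7.02 in dog1-1, 7.26 in NILDOG1 and 6.28 in Ler, and AT5G44080, a bZIP transcription factor gene, averaged 7.52, 7.53 and 6.76 in the same order. None of these 4 overlapped between either line and Ler.

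Other genes of the class fell in both lines. AT5G48350 gave 2.90, 2.56 and 2.47 in dog1-1, 2.80, 2.76 and 2.47 in NILDOG1 and 4.63, 5.05 and 4.66 in Ler, which put both lines near the TrpnX controls. It was 4.40-fold lower in dog1-1 and 4.30-fold lower in NILDOG1 than in Ler (adjusted p = 1.85e-06 and 1.76e-05). AT5G46040, a gene of the peptide transporter family, had 2.52 ± 0.17 in dog1-1, 2.51 ± 0.23 in NILDOG1 and 4.03 ± 0.15 in Ler. Both lines averaged at background there, so no fold is given (adjusted p = 1.36e-05 and 1.16e-04 against Ler). AT5G43822 gave 3.23, 3.33 and 3.25 in dog1-1, 3.49, 3.12 and 3.39 in NILDOG1 and 4.97, 4.35 and 5.09 in Ler. At all 3 loci dog1-1 overlapped NILDOG1 and neither overlapped Ler.

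AT5G43680 was 3.39-fold lower in dog1-1 and 2.64-fold lower in NILDOG1 than in Ler, from arrays at 4.83, 4.71 and 4.75 in dog1-1, 4.98, 5.06 and 5.33 in NILDOG1 and 6.40, 6.52 and 6.66 in Ler. It fell while its measured neighbour AT5G43670 rose. AT5G41960 had 6.27 ± 0.14 in dog1-1, 6.06 ± 0.28 in NILDOG1 and 7.20 ± 0.18 in Ler. AT5G44000, of the glutathione transferase family, had 7.85 ± 0.051, 8.02 ± 0.15 and 8.91 ± 0.084 in dog1-1, NILDOG1 and Ler, and its call in NILDOG1 against Ler was lost after centring on the hybridization controls (-0.72). The other falls of the class were AT5G45160 (RL2, related to the GTP-binding protein RHD3), AT5G45590, AT5G48175, AT5G48370 and AT5G47400, where NILDOG1 against Ler fell by 0.74, 0.82, 0.80, 0.96 and 0.98, and AT5G45790, given with the neighbours of DOG1. AT5G48175 was at background in dog1-1 (2.53). For AT5G47400 both probe sets fell in both lines. The dimmer one was like NILDOG1, and the brighter one was like neither, with dog1-1 at 5.77 ± 0.10, NILDOG1 at 6.40 ± 0.078 and Ler at 7.23 ± 0.35. The call of the brighter one in dog1-1 against NILDOG1 (-0.62) was lost without dog1-1 replicate 1 (-0.57), without NILDOG1 replicate 1 or 2 (-0.60 each) and after centring on the hybridization controls (-0.44). It was the 1 locus of 8 whose probe sets differed in class.

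**Figure D3:**
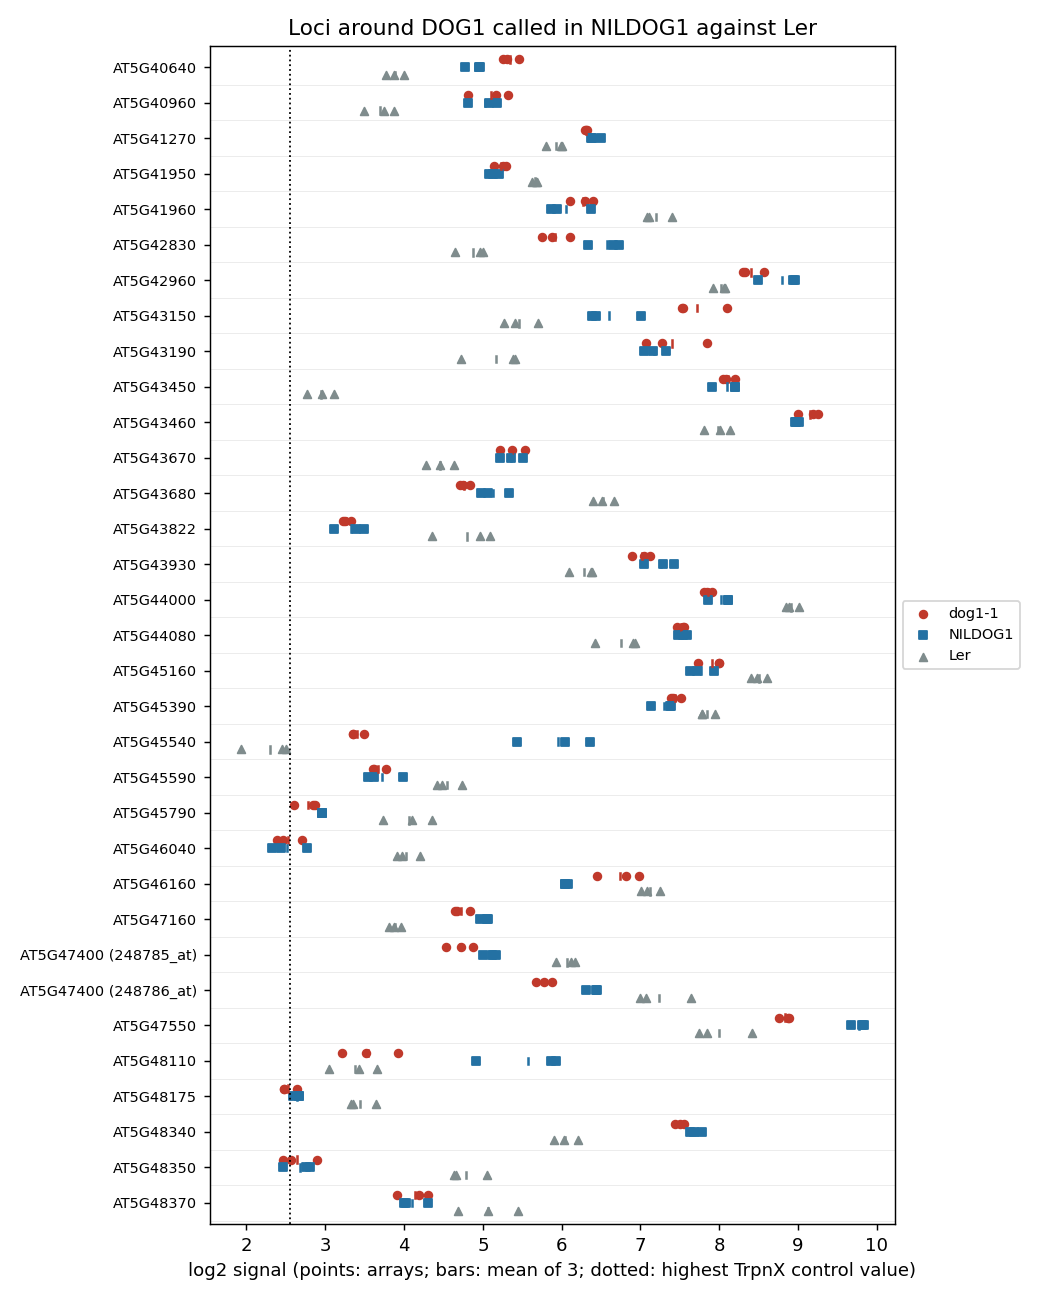
Log2 signal of the 33 probe sets called in NILDOG1 against Ler, from AT5G40640 at the top to AT5G48370 at the bottom, with 3 arrays of dog1-1 (red circles), NILDOG1 (blue squares) and Ler (grey triangles), bars at the means and a dotted line at the highest TrpnX control value (2.56). Red and blue lie together and away from grey in most rows, with AT5G45540, AT5G46160, AT5G47550 and AT5G48110 among the exceptions.

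In 2 called loci dog1-1 went with Ler. AT5G48110, a terpene synthase family gene, gave 3.21, 3.92 and 3.52 in dog1-1, 4.92, 5.86 and 5.93 in NILDOG1 and 3.05, 3.43 and 3.66 in Ler. NILDOG1 alone was high. The signal was 4.06-fold lower in dog1-1 than in NILDOG1 (adjusted p = 2.31e-04) and 4.57-fold higher in NILDOG1 than in Ler (adjusted p = 0.00137), and dog1-1 overlapped Ler (0.17, SE 0.26, adjusted p = 0.746). This locus lies between AT5G47550 and AT5G48175 in the order of called loci, inside the stretch where others were like NILDOG1. AT5G46160, of the ribosomal protein L14 family, had 6.75 ± 0.27 in dog1-1, 6.05 ± 0.026 in NILDOG1 and 7.11 ± 0.13 in Ler. It was lower in NILDOG1 than in dog1-1 and Ler, and dog1-1 was below Ler on all arrays but was not called (-0.37, SE 0.13, adjusted p = 0.0889).

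At 5 called probe sets dog1-1 was like neither, the brighter one of AT5G47400 and 4 others. AT5G45540 gave 3.35, 3.35 and 3.50 in dog1-1, 6.37, 5.43 and 6.05 in NILDOG1 and 2.45, 2.51 and 1.93 in Ler. The Ler mean was at background (2.30 ± 0.32), dog1-1 stood just above it and NILDOG1 was 5.85-fold higher than dog1-1 (adjusted p = 6.96e-06 for dog1-1 against NILDOG1). AT5G47550, a cystatin gene, coding for an inhibitor of cysteine proteases, gave 8.87, 8.89 and 8.76 in dog1-1, 9.82, 9.67 and 9.84 in NILDOG1 and 8.41, 7.84 and 7.75 in Ler. AT5G42830, of the HXXXD acyltransferase family, had 5.91 ± 0.18 in dog1-1, 6.57 ± 0.21 in NILDOG1 and 4.87 ± 0.19 in Ler. In these 3 genes dog1-1 lay between the others, and all pairs of genotypes were called, that of dog1-1 and NILDOG1 at AT5G42830 no longer after centring on the hybridization controls (-0.48). AT5G43150 differed in that dog1-1 was the highest, at 7.72 ± 0.33, with NILDOG1 at 6.61 ± 0.34 and Ler at 5.46 ± 0.22. AT5G47110 (LIL3:2, a light-harvesting-like protein) had the same order, 4.73 ± 0.36, 3.84 ± 0.13 and 2.97 ± 0.25, but missed the call in NILDOG1 against Ler (adjusted p = 0.0598).

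The remaining 4 called loci were like both by the margin. AT5G41270 was higher in NILDOG1 than in Ler by 0.48, AT5G42960 by 0.78, and AT5G41950 and AT5G45390 (CLPP4, a subunit of the Clp protease) fell by 0.52 and 0.54. In all 4 the dog1-1 mean lay between those of NILDOG1 and Ler. The call of AT5G41270 and that of AT5G45390 were lost in every one of the 9 fits without 1 array. Of all 33 calls 23 were kept in each of those 9 fits. The calls of AT5G44080 and AT5G45160 were kept in 6 of them, that of AT5G45590 in 5, those of AT5G42960 and AT5G43150 in 4, and those of AT5G41950, AT5G48370 and the brighter probe set of AT5G47400 in 3.

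Of the 5 measured loci on either side of DOG1, AT5G45790 was the only one called in NILDOG1 against Ler, with 2.60, 2.88 and 2.85 in dog1-1, 2.97 on all 3 arrays of NILDOG1 and 3.73, 4.36 and 4.11 in Ler. The 3 NILDOG1 values were identical in the deposited table, so their spread is not a measure of error. It was 2.44-fold lower in dog1-1 and 2.14-fold lower in NILDOG1 than in Ler (adjusted p = 6.95e-05 and 0.00272). AT5G45920 had 5.67, 6.36 and 5.93 in dog1-1, 5.10, 4.74 and 5.17 in NILDOG1, and in Ler a lowest value of 5.55 and a median of 5.74. NILDOG1 was below both others on all arrays, called against dog1-1 (dog1-1 minus NILDOG1 0.98, SE 0.18, adjusted p = 0.0028) but not against Ler (adjusted p = 0.144).

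AT5G45690, the brightest of these neighbours, had 12.72 ± 0.060 in dog1-1, 13.02 ± 0.066 in NILDOG1 and 13.06 ± 0.033 in Ler. It was called as lower in dog1-1 against NILDOG1 (-0.30, adjusted p = 0.0434) and against Ler (-0.33, adjusted p = 0.0245), and the difference from Ler turned to 0.022 after centring on the hybridization controls. Both calls were also lost with the replicate number as a block, that against NILDOG1 in 7 and that against Ler in 5 of 9 fits without 1 array. AT5G45840, the next measured locus after DOG1, codes for a receptor-like kinase and averaged 2.29 in dog1-1, 2.34 in NILDOG1 and 2.63 in Ler, with both lines at background. Its call in dog1-1 against Ler (adjusted p = 0.0345) also turned sign after that centring, to 0.009, and was lost in 5 of 9 fits without 1 array. AT5G45700 and AT5G45850 were at background in all 3 genotypes, and AT5G45760, AT5G45780, AT5G45880 and AT5G45910 were called in 0 of the 3 comparisons.

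**Figure D4:**
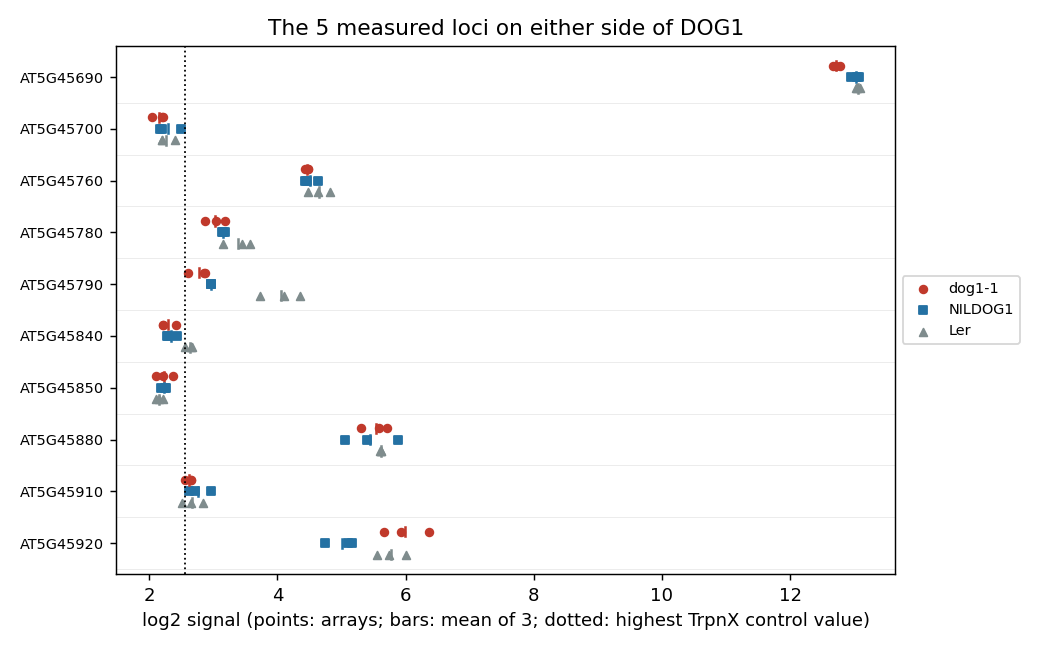
Log2 signal of the 5 measured loci on either side of DOG1, in locus order from the top, with 3 arrays of dog1-1 (red circles), NILDOG1 (blue squares) and Ler (grey triangles), bars at the means and a dotted line at the highest TrpnX control value (2.56). AT5G45790 sets both lines below Ler, and AT5G45920 sets NILDOG1 (4.74 to 5.17) below dog1-1 (5.67 to 6.36) and Ler (5.55 and above).

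At some loci dog1-1 alone stood apart. Of the 35 loci like neither, 27 had NILDOG1 and Ler within 0.5 of each other (4.37% of the region's loci, against 6.79% outside), 13 of them higher and 14 lower in dog1-1. Both comparisons of dog1-1 were called at 23 of the 27 (3.72% of the region's loci, against 6.28% outside). AT5G45630 gave 5.48, 5.32 and 4.94 in dog1-1, 7.25, 7.07 and 7.69 in NILDOG1 and 7.23, 7.36 and 7.60 in Ler. AT5G42290 gave 9.05, 9.33 and 9.15 in dog1-1, 11.27, 11.19 and 11.44 in NILDOG1 and 11.17, 11.26 and 10.67 in Ler. In both genes dog1-1 was low and NILDOG1 overlapped Ler, with falls of 4.43-fold and 3.63-fold in dog1-1 against Ler (adjusted p = 6.73e-06 and 5.78e-06). AT5G50360, beyond the end of the NILDOG1 calls, had 8.32 ± 0.13 in dog1-1, 10.05 ± 0.071 in NILDOG1 and 9.99 ± 0.20 in Ler. AT5G43770 fell in the same way, to 8.45 ± 0.21 in dog1-1, against 9.94 ± 0.18 in NILDOG1 and 9.95 ± 0.14 in Ler.

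Genes of this kind also rose. AT5G47930, a ribosomal protein S27 gene, had 8.34 ± 0.24 in dog1-1, 7.42 ± 0.12 in NILDOG1 and 7.48 ± 0.16 in Ler. CML43 (AT5G44460), a calmodulin-like calcium sensor gene, had 4.16 ± 0.45 in dog1-1, 2.98 ± 0.19 in NILDOG1 and 3.39 ± 0.076 in Ler, and its call against Ler (0.77) was lost without Ler replicate 3 (0.75). AT5G48540, related to cysteine-rich receptor kinases, was one of 8 loci where all 3 means lay apart, and rose 4.14-fold, to 8.09 ± 0.17 in dog1-1 against 6.04 ± 0.37 in Ler, and NILDOG1 had 6.62 ± 0.21. Its difference between NILDOG1 and Ler was not called (0.58, SE 0.17, adjusted p = 0.396), with the arrays overlapping.

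Gene families of the region were thinly covered by named probe sets. Of 50 resistance and TIR genes, which encode intracellular receptors for pathogens and often differ between accessions, 26 were measured. None was called in NILDOG1 against Ler (0 of 26 with limma, 2 with an unadjusted p under 0.05), with a median change of -0.042. The share called was 0.545% over all probe sets and 5.27% in the region, and a list of 26 is too small to set 0 apart from either. Their levels were low, with highest means of 4.49 in dog1-1, 4.79 in NILDOG1 and 4.77 in Ler, and 5 were at background in all 3 genotypes. In dog1-1 against Ler 0 rose and 1 fell, AT5G45060, a TIR-type receptor gene, with 3.15 ± 0.028 in dog1-1, 3.42 ± 0.058 in NILDOG1 and 3.67 ± 0.21 in Ler (-0.53, adjusted p = 0.00602). That is 1 of 26, against 13.6% over all probe sets, and the call was lost after centring on the hybridization controls (-0.18). In dog1-1 against NILDOG1 0 were called with limma and 1 had an unadjusted p under 0.05. The median change was -0.12 in dog1-1 against Ler, beside -0.040 over all probe sets.

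Of 12 terpene genes 3 were measured, and AT5G48110, described above, was the 1 that was called. It passed in NILDOG1 against Ler and in dog1-1 against NILDOG1, where 0.545% and 12.5% of all probe sets were called. Of 9 seed storage and oil body genes 3 were measured, OLEO3, AT5G45690 and AT5G44310, an LEA-type gene. In NILDOG1 against Ler 0 of these were called with limma, and 0 had an unadjusted p under 0.05. In dog1-1 2 fell against Ler and 2 against NILDOG1, where 5.28% and 4.94% of all probe sets fell. AT5G44310 had 11.58 ± 0.11 in dog1-1, 11.99 ± 0.098 in NILDOG1 and 12.05 ± 0.096 in Ler. Both calls of AT5G44310 were lost after centring on the hybridization controls (-0.12 against Ler and -0.23 against NILDOG1), as was that of AT5G45690 against NILDOG1 (-0.115). The call of AT5G44310 against NILDOG1 was also lost after repeated quantile normalization (-0.27), without dog1-1 replicate 3 (-0.35) and without NILDOG1 replicate 1 or 2 (-0.38 each). OLEO3 did not pass in any comparison, with 9.96 ± 0.15, 9.83 ± 0.025 and 9.71 ± 0.26 in dog1-1, NILDOG1 and Ler.

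Of 7 heat shock and chaperone genes 3 were measured, and in NILDOG1 against Ler 0 were called with limma or had an unadjusted p under 0.05. The share called there was 0.545% over all probe sets. In dog1-1 1 of the 3 fell against Ler and 2 fell against NILDOG1, where 5.28% and 4.94% of all probe sets fell. AT5G51440, a gene of the small heat shock protein family, gave 4.30, 4.15 and 4.22 in dog1-1, 5.59, 5.44 and 5.35 in NILDOG1 and 5.39, 5.18 and 5.16 in Ler. It fell 2.03-fold in dog1-1 against Ler and 2.35-fold against NILDOG1 (adjusted p = 3.56e-05 and 7.89e-06). ROF2 (AT5G48570), an immunophilin gene, was lower in dog1-1 than in NILDOG1 (3.07 ± 0.16 against 4.01 ± 0.32, adjusted p = 0.0112), a call lost without dog1-1 replicate 3 (-0.85) and without NILDOG1 replicate 2 (-0.79), and was not called against Ler (3.66 ± 0.47, adjusted p = 0.0997). Of 12 defence genes 2 were measured, and 0 were called with limma or had an unadjusted p under 0.05 in any comparison. Over all probe sets 0.545% to 13.6% were called, and 2 members are too few to weigh against such shares. The brighter, PDF1.2, a plant defensin gene, had 2.98 ± 0.037 in dog1-1, 2.91 ± 0.11 in NILDOG1 and 3.11 ± 0.12 in Ler. The list of 9 abscisic acid and gibberellin genes of the region had 0 measured members and was not analysed here.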

How the data were processed

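The deposited table gives log2 signals of 22810 probe sets on 9 arrays, which the authors obtained by RMA according to the submitters' processing notes; the version is not given in the sources used here, and the log base was read from the values. The tests omitted 64 control probe sets. Of the others, 13513 were listed with 1 gene, 503 with several and 8730 not listed; 13436 matched 1 locus of a current gene table (TAIR10.1), used for names and order only. Genotypes were compared in R 4.3.3 with limma 3.58.1 (1 fit of 9 arrays, genotype as the only term, 6 residual degrees of freedom), with Benjamini-Hochberg adjustment over all 22746 probe sets. Classes of dog1-1 used group means, a margin of 0.5 and, per locus, the probe set with the highest mean. On simulated data for NILDOG1 against Ler (22746 probe sets) 38.2% of changes of 0.5, 89.6% of 1 and 100% of 2 were recovered. False calls averaged 8.9 per run. The simulation changed 200 probe sets in NILDOG1 alone and used independent normal noise, which real arrays need not follow.

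The region, the lists, the rule for named genes and the alternatives were chosen with earlier results of these data known. Named by rule were the 5 measured loci on either side of DOG1; of the called loci without overlap, the 10 largest rises and falls in NILDOG1 against Ler and the 6 in each other comparison; the first and last called; the 10 loci like NILDOG1 with the largest shift from Ler; and, per list, up to 3 called members per direction and comparison, or the member with the highest mean where none passed. The other called loci, the calls outside the region and loci at the margin were named after their values were seen. The number of arrays limits the precision. Plants were grown in blocks per the labels, which do not say that replicate numbers mark them; after removal of genotype means, arrays of the same number correlated between -0.231 and 0.0299.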

Additional observations from a re-analysis of the deposited data

How the results depend on the processing

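The count of called probe sets without 1 array ran from 23 to 34 in NILDOG1 against Ler, from 78 to 110 in dog1-1 against Ler and from 41 (without NILDOG1 replicate 1) to 71 in dog1-1 against NILDOG1. Loci like NILDOG1 then ran from 48 to 54, like Ler from 9 to 15, like neither from 32 to 39 and like both from 515 to 523. Requiring a 2-fold change left 19, 28 and 12 probe sets in the same order of comparisons (0.312%, 3.45% and 3.43% over all). A margin of 0.25 gave 87 loci like NILDOG1 (14.1%, against 7.88% outside the region), 47 like Ler and 97 like neither; a margin of 1 gave 18 (2.91%, against 0.365% outside), 3 and 9. Centring on the hybridization controls gave 89 loci like NILDOG1, and turned the sign of AT5G45690 (0.022) and AT5G45840 (0.009) in dog1-1 against Ler; the cause was not tested. With the replicate number as a block 30 probe sets were called in NILDOG1 against Ler (4.79%, against 0.501% over all), 101 in dog1-1 against Ler (16.1%, against 12.3%) and 52 in dog1-1 against NILDOG1 (8.31%, against 11.3%). The other alternatives, among them the fit without both arrays of low 25S control (chosen after seeing the data), kept every count within 1.5 times. Signals near the TrpnX controls limit what can be seen at the 117 probe sets at background.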
